A study of Mus musculus with 6 samples.

Results

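Enamel matrix and ameloblast genes were followed through 6 RNA sequencing libraries of the mouse first molar. The group comprised 9 genes of the 25899 in the deposited table. It was made by symbol from a list of enamel matrix proteins, enamel proteases and ameloblast proteins, and all 9 were found. Amelx, Ambn, Enam and Mmp20 served as secretory-stage genes, Klk4, Odam and Amtn as maturation-stage genes, and Csn3 and Calb1 completed the list. The tissue was the apical part of the dental mesenchyme of lower first molars, cut with a blade at postnatal day 7.5. The 3 mutants were Gli1-CreER;Bmpr1afl/fl and the 3 controls were Bmpr1afl/fl littermates, so both groups carried the loxP-flanked Bmpr1a alleles and only mutants carried the recombinase driver. The protein encoded by Bmpr1a is a receptor kinase that binds bone morphogenetic proteins. CreER needs tamoxifen to act and is made here in cells that express Gli1. The tamoxifen schedule, and whether controls received it, are not given in the sources used here. All animals had a mixed background (C57Bl6/129S6/SvEvTac). Litter 1 supplied controls 1 and 2 and mutants 1 and 2, and litter 2 supplied control 3 and mutant 3. The labels do not say whether a library came from a single animal or a pool, so p-values measure only the spread between these libraries.

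Ameloblasts are epithelial cells that lay down enamel on the crown. In their secretory stage they release the matrix proteins amelogenin (Amelx), ameloblastin (Ambn) and enamelin (Enam) together with the metalloprotease enamelysin (Mmp20), which trims them. In the later maturation stage they make the serine protease kallikrein 4 (Klk4), which degrades the remaining matrix, and the proteins ODAM (Odam) and amelotin (Amtn), which lie between the cell and the enamel surface. Csn3 encodes the milk protein kappa-casein, which belongs to the same family of secretory calcium-binding phosphoproteins. Calb1 encodes the calcium buffer calbindin, abundant in ameloblasts. Mmp20 and Klk4 are also known from odontoblasts, the mesenchymal cells that make dentin.

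Gene positions are from GENCODE M21 on GRCm38, the assembly that mm10 denotes. Odam (chr5:87885029-87894174), Csn3 (chr5:87925579-87932665), Amtn (chr5:88376108-88385916), Ambn (chr5:88455991-88468531) and Enam (chr5:88487975-88506049) lie on the plus strand within 0.62 Mb of chromosome 5. Klk4 (chr7:43881160-43885804), Mmp20 (chr9:7628231-7674979) and Calb1 (chr4:15881264-15908064) are also on plus strands. Amelx (chrX:169176114-169187200, minus strand) lies inside an intron of Arhgap6, which is on the plus strand and shares 0 exonic bases with it. Whether reads were counted by strand is not stated, but Arhgap6 itself was at 1.82 to 4.51 RPM (reads scaled to library depth). The antisense neighbour of Mmp20, AV064505, was at 0.106 to 0.299 RPM. Csn3 also has an antisense neighbour, 1700066N21Rik, not analysed here.

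Upstream sequences are shown because Amelx, Ambn, Enam, Odam, Amtn, Csn3 and Calb1 varied together across libraries. The proteases Mmp20 and Klk4 departed from them. Of the 9 genes, 7 had an entry in the RefSeq promoter table (GRCm38.p6), and the 150 bases before each start are printed from 5′ to 3′ on the gene's strand. Csn3 and Calb1 had no entry and could not be searched, so the division described below leaves them out. Capitals mark GATTGG, which contains ATTGG, the reverse complement of the CCAAT box, a common promoter element. The windows are chrX:169187210-169187359 (minus strand) for Amelx, chr5:88455841-88455990 for Ambn, chr5:88487825-88487974 for Enam, chr5:87884860-87885009 for Odam, chr5:88375958-88376107 for Amtn, chr9:7628081-7628230 for Mmp20 and chr7:43881010-43881159 for Klk4.
Amelx: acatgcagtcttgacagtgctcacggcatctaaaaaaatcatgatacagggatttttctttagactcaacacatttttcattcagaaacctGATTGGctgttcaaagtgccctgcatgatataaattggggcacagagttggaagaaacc
Ambn: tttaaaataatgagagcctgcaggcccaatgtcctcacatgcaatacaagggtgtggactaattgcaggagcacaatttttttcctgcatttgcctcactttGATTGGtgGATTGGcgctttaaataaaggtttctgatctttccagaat
Enam: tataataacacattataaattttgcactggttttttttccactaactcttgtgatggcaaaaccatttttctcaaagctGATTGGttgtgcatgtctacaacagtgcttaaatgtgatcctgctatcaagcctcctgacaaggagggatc
Odam: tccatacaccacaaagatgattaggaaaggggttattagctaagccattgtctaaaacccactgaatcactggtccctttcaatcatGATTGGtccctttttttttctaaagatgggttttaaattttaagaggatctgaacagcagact
Amtn: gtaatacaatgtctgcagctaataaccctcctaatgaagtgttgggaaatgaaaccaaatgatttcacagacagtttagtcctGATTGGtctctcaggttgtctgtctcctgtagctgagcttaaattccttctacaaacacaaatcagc
Mmp20: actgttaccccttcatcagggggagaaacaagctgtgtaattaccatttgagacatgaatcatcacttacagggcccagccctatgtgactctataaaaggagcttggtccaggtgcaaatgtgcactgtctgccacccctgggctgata
Klk4: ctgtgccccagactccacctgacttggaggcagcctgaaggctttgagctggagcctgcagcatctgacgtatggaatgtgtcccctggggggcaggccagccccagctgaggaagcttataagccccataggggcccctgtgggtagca

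GATTGG or its reverse complement CCAATC was present in 5 of the 7 windows, those of Amelx, Ambn, Enam, Odam and Amtn. Each match was on the gene's own strand. It began 59 bases before the start in Amelx, 71 in Enam, 63 in Odam and 67 in Amtn, and Ambn held 2 copies, the farther at 48. Among 32851 promoters of the same length, 10.9% held it. The shorter CCAAT, on either strand, was in the same 5 windows and in 24.5% of all promoters. Neither string was found in the Mmp20 or Klk4 window. TATAAA, the core of a TATA box, was searched as well, on either strand (TTTATA), and did not follow this division: it was in 3 of the 7 windows, those of Amelx, Enam and Mmp20, and in 7.57% of all promoters. These strings were picked after the sequences had been read, and a match does not show that a factor binds there.

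Library depth ran from 15916045 to 20609420 reads on genes. A level of 3 reads, taken as the lower limit of detection, was worth 0.0987 to 0.126 RPM. The mean Bmpr1a level was 136 ± 14.4 RPM for controls and 113 ± 6.51 RPM for mutants (SD, n = 3 each), a log2 change of -0.27 (SE 0.14; limma, unadjusted p 0.091). By library it was at 121, 139 and 149.5 RPM in the controls and 108, 120.2 and 111 RPM in mutants, without overlap. Gli1, the gene that drives the recombinase, was at 34.9, 30.4 and 63.7 RPM in the controls and 28.7, 19.8 and 26.6 RPM in mutants, a log2 change of -0.70 (SE 0.29; limma, unadjusted p 0.046). Reads from undeleted exons and from cells without recombination count towards the Bmpr1a level. The mesenchyme markers of the label were present: their 8 genes summed to 14526 to 47310.2 RPM. Dental epithelium markers were present too, and their 16 genes summed to 359 RPM in control 2, the lowest, and 6246 RPM in mutant 3, the highest. In bulk RNA, fewer cells of a type and less RNA per cell cannot be told apart.

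The secretory matrix genes were abundant and varied widely between libraries of the same genotype. Amelx was at 2220.4, 876 and 19794 RPM for controls 1, 2 and 3 and at 23480.0, 2526 and 10097 RPM in mutants 1, 2 and 3. It was high in control 3, mutant 1 and mutant 3 and low in control 1, control 2 and mutant 2, so each genotype held both high and low libraries. More reads came from Amelx than from any other gene in control 3 and mutant 3, and in mutant 1 it ranked 2 by reads. Ambn was at 1014, 969 and 13238 RPM in the controls and 18402, 1552 and 5728 RPM in mutants. Enam, which encodes the largest of the 3 matrix proteins, was at 189.6, 133 and 3107 RPM in the controls and 4002, 223 and 1092 RPM in mutants. All 3 genes placed the libraries in the same order, from control 2 through control 1, mutant 2, mutant 3 and control 3 to mutant 1. The highest library exceeded the lowest 26.8-fold for Amelx, 19.0-fold for Ambn and 30.1-fold for Enam.

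**Figure D1:**
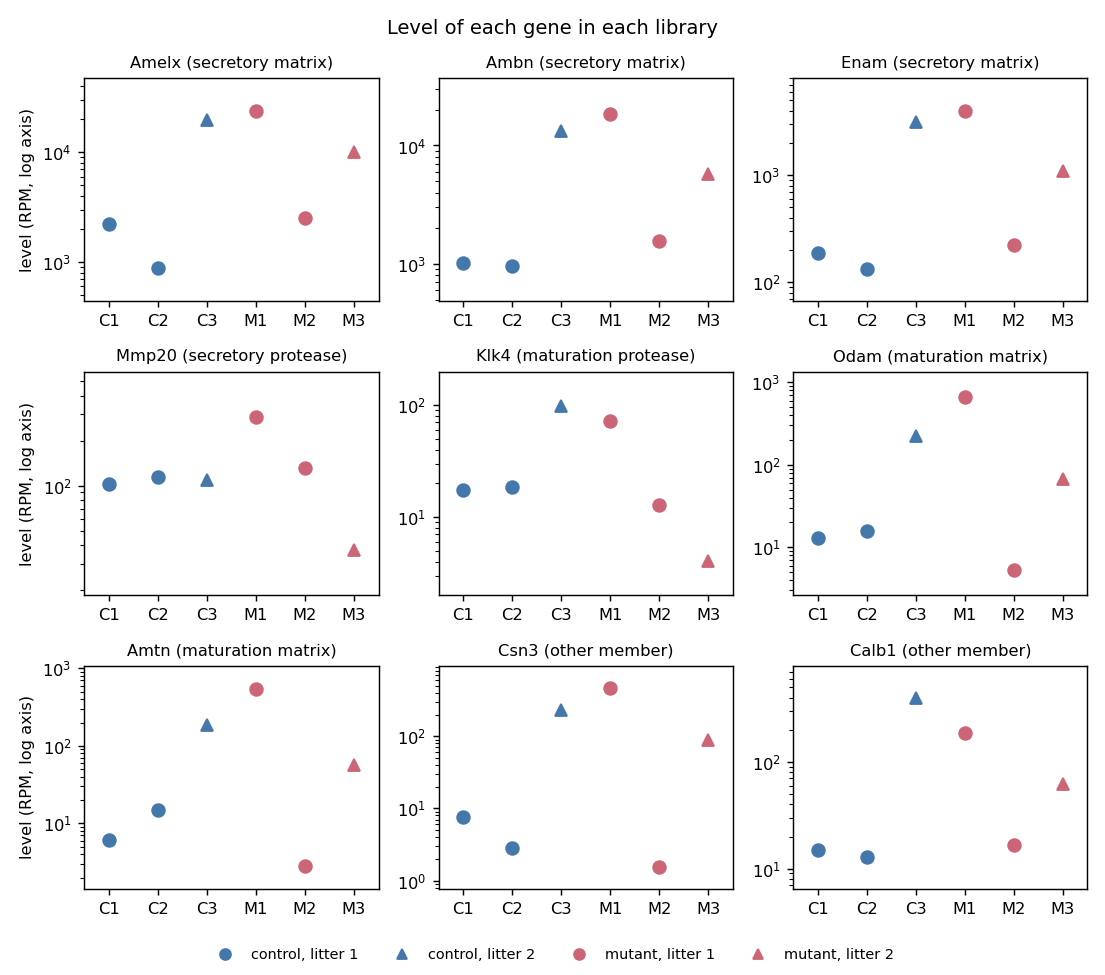
Level of each of the 9 genes (RPM, log axis) in controls 1 to 3 (C1 to C3, blue) and mutants 1 to 3 (M1 to M3, red), with circles for litter 1 and triangles for litter 2. Amelx, Ambn and Enam are high in C3, M1 and M3, whereas Mmp20 and Klk4 are lowest in M3.

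The 9 genes together took 7.15% of the reads on genes in mutant 1 (95% Wilson interval 7.141% to 7.165%) and 5.54% in control 3 (5.527% to 5.548%). The share was 2.58% in mutant 3 (2.576% to 2.592%) and 0.652% in mutant 2 (0.6488% to 0.6558%). It was 0.53% in control 1 (0.5264% to 0.5326%) and 0.316% in control 2 (0.3131% to 0.318%). The intervals describe counting error alone, because reads that carry no molecular identifier may be copies of the same molecule. They are narrow beside the differences between libraries of a genotype.

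The proportions of the 3 matrix genes to each other varied less than their levels. Ambn stood at 456 to 1106 RPM per 1000 RPM of Amelx, a 2.43-fold range, and Enam at 85.4 to 170.4, a 2.00-fold range. The ratio of Ambn to Enam ran from 4.26 in control 3 to 7.30 in control 2. Per kilobase of exon in GENCODE, Amelx was above Ambn and Ambn above Enam in each of the 6 libraries. In mutant 1, for example, they were at 23504, 9589.6 and 729 RPM per kb. The next places on that scale changed with the library. Mmp20 came after Enam in control 1 (31.0 against 34.5 RPM per kb) and mutant 2 (40.0 against 40.7), and above it in control 2 (35.1 against 24.2). In control 3, mutant 1 and mutant 3 the place after Enam went to Amtn (180.3, 523 and 55.1 RPM per kb), with Odam next (162, 481 and 49.4). Exon lengths used here may differ from those of the annotation the authors counted on.

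Mmp20, the protease of the secretory stage, did not share this pattern. It was at 102, 115 and 109 RPM in the controls and at 287, 131 and 37.0 RPM in mutants. The controls lay close together although their Amelx levels spanned more than an order of magnitude, and the highest and the lowest values were both mutants. Relative to 1000 RPM of Amelx, Mmp20 ran from 3.67 RPM in mutant 3 and 5.49 RPM in control 3 through 12.2 RPM in mutant 1 to 132 RPM in control 2, a 36.0-fold range. Both libraries of litter 2 were at the low end of that ratio. Mutant 3, with the third highest Amelx level, had the lowest Mmp20 level, at 884 reads.

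The matrix-associated maturation genes varied more than the secretory ones. Odam was at 13.1, 15.7 and 223 RPM in the controls and 662, 5.26 and 68.0 RPM in mutants, a 126-fold span between mutant 2 and mutant 1. Amtn was at 6.06, 14.9 and 184 RPM in the controls and 535, 2.86 and 56.3 RPM in mutants, a 187-fold span. Both placed the libraries in the order mutant 2, control 1, control 2, mutant 3, control 3 and mutant 1. The high libraries were thus the same 3 as for Amelx, and the order among the low ones differed. Amtn per Odam stayed between 0.462 and 0.953, so this pair varied together over a range of levels far wider than that of their ratio. In mutant 2, where both were lowest, the values rested on 158 reads for Odam and 86 for Amtn.

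Klk4, the maturation protease, departed from Odam and Amtn. It was at 17.5, 18.7 and 98.4 RPM in the controls and 71.9, 12.8 and 4.02 RPM in mutants. Control 3 and mutant 1 were high, as for the other enamel genes, but mutant 3 was the lowest library, at 96 reads. The ratio of Odam to Klk4 was 0.748, 0.836 and 2.27 in controls and 9.20, 0.411 and 16.9 in mutants. Mutant 3 therefore combined high Odam with low Klk4, and its 2 proteases were both at their lowest. Per 1000 RPM of Amelx, Klk4 was at 0.398 RPM in mutant 3 and at 3.06 to 21.4 RPM in the other libraries.

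Csn3 had the widest range of the 9 genes, 308-fold. It was at 7.57, 2.83 and 231 RPM in the controls and 471, 1.53 and 90.0 RPM in mutants, with 46 reads behind the lowest value. Calb1 was at 14.8, 12.9 and 397 RPM in the controls and 186, 16.6 and 61.6 RPM in mutants. Both were high in control 3, mutant 1 and mutant 3. For Calb1 the highest library was control 3, which it shared with Klk4 alone among the 9 genes. The median SD of log2(RPM + 1) over the 6 libraries was 2.06 for the 9 genes and 0.23 for the 14444 genes tested. A spread of at least 4-fold between the highest and lowest library, on the RPM + 1 scale, occurred in 714 tested genes, 4.94%.

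**Figure D2:**
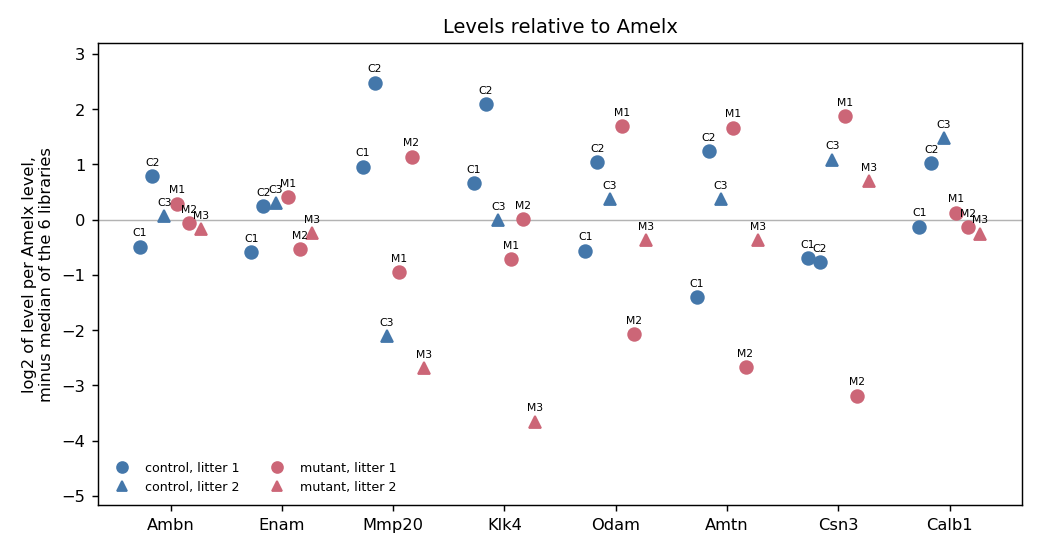
Level of 8 genes divided by the Amelx level of the same library, as log2 and centred on the median of the 6 libraries (C, control, blue; M, mutant, red; circles, litter 1; triangles, litter 2). Ambn and Enam stay close to 0, Mmp20 runs from C2 at the top to M3 at the bottom, and Klk4 in M3 lies far below its other libraries.

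The balance of secretory to maturation genes was taken per library as the summed RPM of Amelx, Ambn, Enam and Mmp20 over that of Klk4, Odam and Amtn. It is a ratio of reads and not of molecules, since transcript length is not divided out, and Amelx and Ambn dominate its numerator. The ratio was 96.2, 42.4 and 71.6 in controls and 36.4, 212 and 132 in mutants. Mutants held both the lowest and the highest value and so enclosed all 3 controls. The mean log2 ratio was 6.05 ± 0.60 (SD, n = 3) in controls and 6.65 ± 1.32 in mutants, a difference of 0.60, smaller than the SD among mutants. No p-value was computed for this summary of chosen genes. The difference was 0.06 without mutant 2 and 1.34 without mutant 1, so its size depended on single libraries. Mutant 1, with the highest levels of most of the genes, had the lowest ratio, and mutant 2, with low levels, had the highest. In mutant 3, Odam and Amtn per 1000 RPM of Amelx (6.73 and 5.58) lay above control 1 (5.90 and 2.73) and mutant 2 (2.08 and 1.13) and below control 2 (17.9 and 17.0), control 3 (11.3 and 9.31) and mutant 1 (28.2 and 22.8), whereas Klk4 was the lowest of the 6 libraries.

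**Figure D3:**
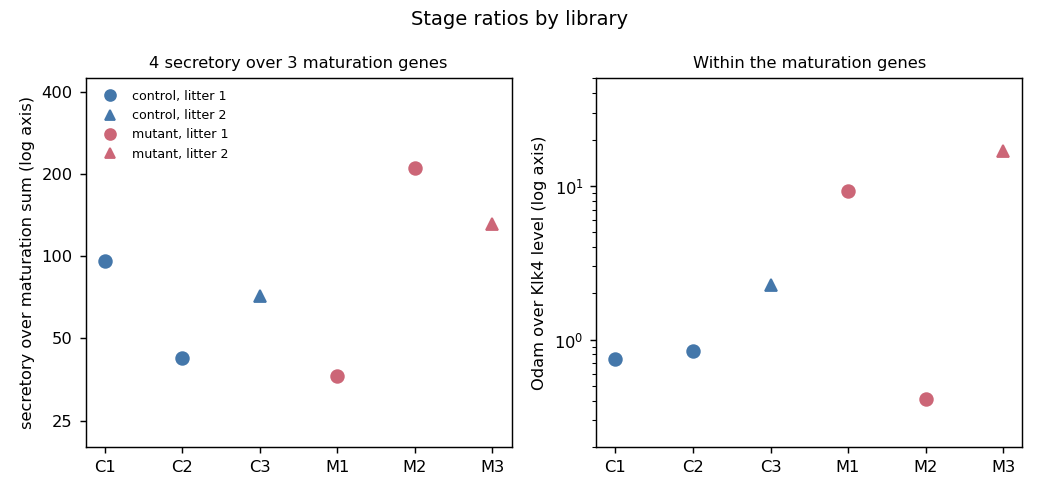
Left, summed level of the 4 secretory genes over that of the 3 maturation genes (log axis); right, Odam level over Klk4 level (log axis), for controls (C, blue) and mutants (M, red) of litter 1 (circles) and litter 2 (triangles). The left ratio runs from 36.4 in M1 to 212 in M2, and the right ratio from 0.411 in M2 to 16.9 in M3.

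The comparison of mutants with controls asked whether loss of Bmpr1a from the Gli1 lineage was accompanied by a change in these genes. None of the 9 changed by the test used, limma on log2(RPM + 1) over 14444 genes, and 0 of 9 had groups that did not overlap. Of all genes in the test, 0 (0%) passed adjustment at the 0.05 threshold (limma, Benjamini-Hochberg). An unadjusted p under 0.05 was found for 152, or 1.05%, and groups without overlap for 382, or 2.64%. Amelx differed by 1.32 (SE 1.33; unadjusted p 0.353), Ambn by 1.22 (SE 1.28; p 0.372) and Enam by 1.21 (SE 1.41; p 0.418), all by limma, with adjusted p of 1.00. Mmp20 differed by 0.05 (SE 0.65; limma, unadjusted p 0.942). Among maturation genes the values were -0.95 (SE 1.03) for Klk4, 0.81 (SE 1.74) for Odam and 0.84 (SE 1.87) for Amtn. Csn3 stood at 1.28 (SE 2.15) and Calb1 at 0.41 (SE 1.40). The standard errors were about as large as the differences or larger. Of the 9 values 8 lay above 0, with a median of 0.84, whereas 45.6% of all tested genes lay above 0, with a median of -0.01. The genes vary together, so they do not count as separate observations. Among bone markers Ibsp (-1.41) and Spp1 (-3.05), 2 of 3 tested, had an unadjusted p under 0.05 by limma, against 1.05% of all tested genes, and 0 passed adjustment. Spp1 was at 4.54, 96.1 and 159 RPM in the controls and 4.62, 3.36 and 5.20 RPM in mutants, so its groups overlapped. The remaining tested marker, Bglap, stood at -0.27 (SE 0.85). The 4 bone markers summed to 319 to 892 RPM in the controls and 118 to 865 RPM in mutants, with Sost at 0 in control 1 and mutant 1. Their part in the enamel gene values was not tested.

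Within litters the differences took opposite signs. In litter 1 the mean of both mutants exceeded the mean of both controls by 2.46 for Amelx, 2.43 for Ambn, 2.57 for Enam and 0.84 for Mmp20, on the log2(RPM + 1) scale. In litter 2, with 1 library per genotype and no test, the mutant minus control value was -0.97, -1.21, -1.51 and -1.53 for the same genes. Klk4 stood at 0.73 in litter 1 and -4.31 in litter 2. Odam, Amtn, Csn3 and Calb1 lay between 1.96 and 2.59 in litter 1 and between -2.67 and -1.35 in litter 2. For 5 of the 9 genes, all but Klk4, Odam, Amtn and Csn3, both litter 1 mutants lay above both litter 1 controls and the litter 2 mutant below its control, a pattern found in 3.57% of tested genes. The genotype-by-litter term had an unadjusted p under 0.05 (limma) for 3 of the 9, Mmp20, Klk4 and Calb1, against 5.06% of tested genes, and 0 passed adjustment. Its spread comes from litter 1 alone, with the litter 2 libraries assumed to vary alike, so these p-values lend no support to the opposite signs. Mutant 1 contributed much of the litter 1 value. Without it, the overall difference was -0.85 for Odam, -0.89 for Amtn, -0.38 for Csn3, -0.42 for Calb1 and -0.63 for Mmp20, and that of Amelx was 0.58. Amtn was also at -0.15 without control 1. Calb1 stood at -0.33 without control 1 and -0.42 without control 2, and Mmp20 at -0.06 without mutant 2. Without control 3, Amelx (2.59, p 0.0492), Ambn (2.46, p 0.0494) and Enam (2.64, p 0.0478) had an unadjusted p under 0.05 by limma, as did Mmp20 without mutant 3 (0.84, p 0.0399), and 0 passed adjustment. Mutant 3 carried most of the Klk4 value, which was -0.06 without it and -0.16 without control 3.

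**Figure D4:**
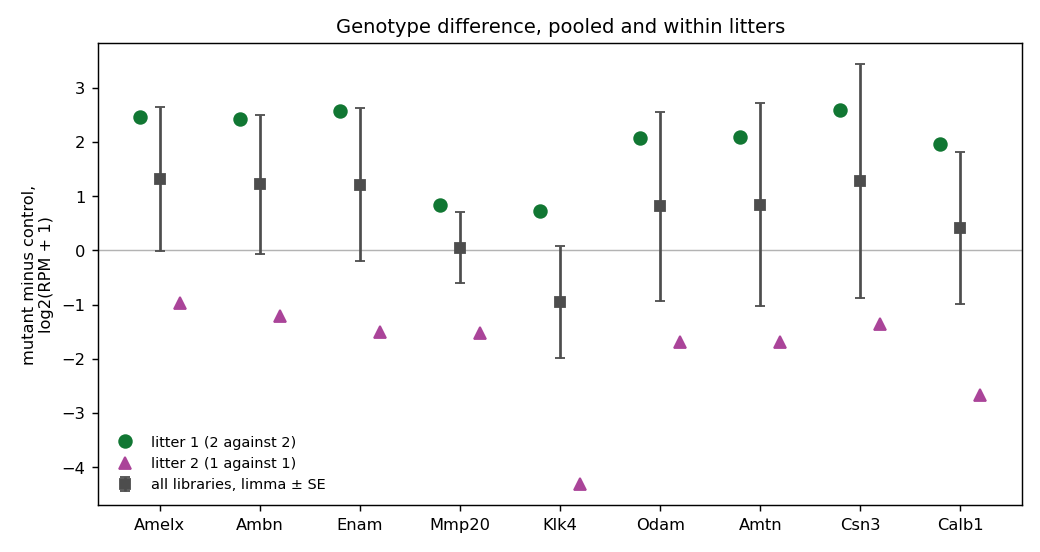
Mutant minus control difference in log2(RPM + 1) for each of the 9 genes: grey squares, all 6 libraries with the limma SE; green circles, litter 1 (2 mutants against 2 controls); purple triangles, litter 2 (1 against 1). Each litter 1 value lies above 0 and each litter 2 value below 0.

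Litter 2 was also set against litter 1, with genotype as a covariate. Litter, animal and dissection cannot be told apart here. In this fit 126 of the 14444 genes, 0.872%, had an adjusted p under 0.05 and 3026, 20.9%, an unadjusted p under 0.05 (limma, Benjamini-Hochberg). None of the 9 genes had an unadjusted p under 0.05. Calb1 was higher in litter 2 by 2.44 (SE 1.23; limma, unadjusted p 0.0912), Csn3 by 3.37 (SE 2.00; p 0.139) and Amelx by 2.11 (SE 1.18; p 0.121). Mmp20 stood at -1.18 (SE 0.55; limma, unadjusted p 0.0727) and Klk4 at -0.14 (SE 1.15; p 0.907). Of the 9 values 7 were above 0, with a median of 2.11, against 46.5% and -0.03 for all tested genes. These values depended on single libraries. Without control 3 they were 0.39 for Amelx, 0.10 for Ambn, 0.21 for Enam, 0.10 for Odam, 0.33 for Amtn, 1.40 for Csn3 and 0.12 for Calb1, while Mmp20 stood at -2.36 and Klk4 at -2.66. Without mutant 2, Odam was at 0.81, Amtn at 0.98 and Csn3 at 2.03. Without mutant 1, the litter 1 library with high enamel genes, Enam (3.43, adjusted p 0.0493), Odam (3.70, 0.0374), Amtn (4.03, 0.0457) and Csn3 (5.27, 0.0457) had an adjusted p under 0.05 in limma after Benjamini-Hochberg correction across the whole table. In that fit 371 genes passed in all, of a set filtered anew whose size is not given here, and Klk4 turned to 0.74. Mutant 1 was the highest library for Enam, Odam, Amtn and Csn3. Leaving it out therefore favoured higher litter 2 values for them, and these p-values lend no support to a litter difference. Without mutant 3, Mmp20 was at 0.00, Klk4 at 2.38, and the other 7 genes between 3.74 and 5.34, with 0 of 9 past adjustment. Erythroid markers also differed: all 3 tested were higher in litter 2 at an unadjusted p under 0.05 (limma), against 20.9% of all tested genes, and 0 passed adjustment. They summed to 130.4 to 339 RPM in litter 1 libraries, 428 RPM in mutant 3 and 1417 RPM in control 3. Their part in the litter values was not tested.

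Dental epithelium markers were highest in the same 3 libraries as Amelx, though not in proportion to it. Krt14, a keratin of basal epithelial cells, was at 436, 81.5 and 990.1 RPM in the controls and 856, 289 and 1154 RPM in mutants. Krt5, its usual partner, was at 832, 95.4 and 1345 RPM in the controls and 1267, 529.9 and 2076 RPM in mutants. Control 2 was lowest for both and mutant 3 highest. The 16 markers summed to 359 to 4483 RPM in the controls and 1711 to 6246 RPM in mutants, and Cldn4 was at 0 in control 2. Of the 15 markers tested, 0 had an unadjusted p under 0.05 for genotype (limma) and the median change was 1.17. For litter, 4 were higher in litter 2 at an unadjusted p under 0.05, Krt14, Krt75, Cdh1 and Sfn, and 0 passed adjustment. Over all tested genes that share was 20.9% in both directions together, so the count of 4 of 15 is near that share. The direction was not mixed: all 15 values lay above 0 for genotype and for litter, with a litter median of 1.72. Over all tested genes 45.6% lay above 0 for genotype and 46.5% for litter. The markers vary together, with control 2 lowest for each, so they do not count as separate observations. Their part in the levels of the enamel genes was not tested.

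Set against Krt14, Amelx still differed between libraries. The ratio of Amelx to Krt14 ran from 5.10 in control 1 to 27.4 in mutant 1, with 10.8 in control 2 and 8.75 in mutants 2 and 3, a 5.37-fold range where Amelx alone spanned 26.8-fold. Mutant 3 had the most keratin, yet its ratio equalled that of mutant 2, a library with low Amelx. Mmp20 per Krt14 ran from 0.0321 in mutant 3 to 1.42 in control 2, the library with the least keratin. The 5 oral mucosa keratins had a similar order, from a sum of 4.20 RPM in control 2 to 165 RPM in mutant 3, and 2 of 3 tested, Krt4 and Krt16, were higher in litter 2 at an unadjusted p under 0.05 (limma), against 20.9% of all tested genes, and 0 passed adjustment. Krt6a, the highest of them by group mean, was at 24.9, 1.43 and 31.5 RPM in the controls and 88.6, 19.4 and 123 RPM in mutants, with a genotype change of 2.26 (SE 1.08; limma, unadjusted p 0.0736). Krt13 did not exceed 1.01 RPM. Their part in the enamel gene levels was not tested.

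Odontoblast markers had a different order. Dspp, the main non-collagen protein gene of dentin, was at 4032, 4844 and 817 RPM in the controls and 6872, 4642 and 113 RPM in mutants. Phex, an endopeptidase gene of mineralizing cells, was at 387, 498 and 113 RPM in the controls and 725, 507 and 18.2 RPM in mutants. Mutant 1 was highest and mutant 3 lowest for both, as for Mmp20. No other marker of the list had both ends in these libraries. Nes and Sp7 were highest in control 2 and lowest in mutant 3. Dmp1 and Smpd3 were highest in control 3, and Smpd3 was lowest in mutant 1 (64.7 RPM). The 6 markers summed to 1873 to 6186 RPM in the controls and 542 to 8286 RPM in mutants. For genotype 0 of 6 had an unadjusted p under 0.05 by limma, with a median change of -0.63. For litter, Dspp stood at -4.03 (limma, unadjusted p 0.000958, adjusted p 0.063), Phex at -3.47 and Nes at -1.19, whereas Dmp1 (1.80) and Smpd3 (1.15) were higher in litter 2. These 5 of 6 had an unadjusted p under 0.05 by limma, against 20.9% of all tested genes, and 0 passed adjustment. Mmp20 was at 23.8 to 41.8 RPM per 1000 RPM of Dspp in the litter 1 libraries, at 133 in control 3 and at 327 in mutant 3. Whether odontoblasts contributed to the Mmp20 and Klk4 levels was not tested.

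**Figure D5:**
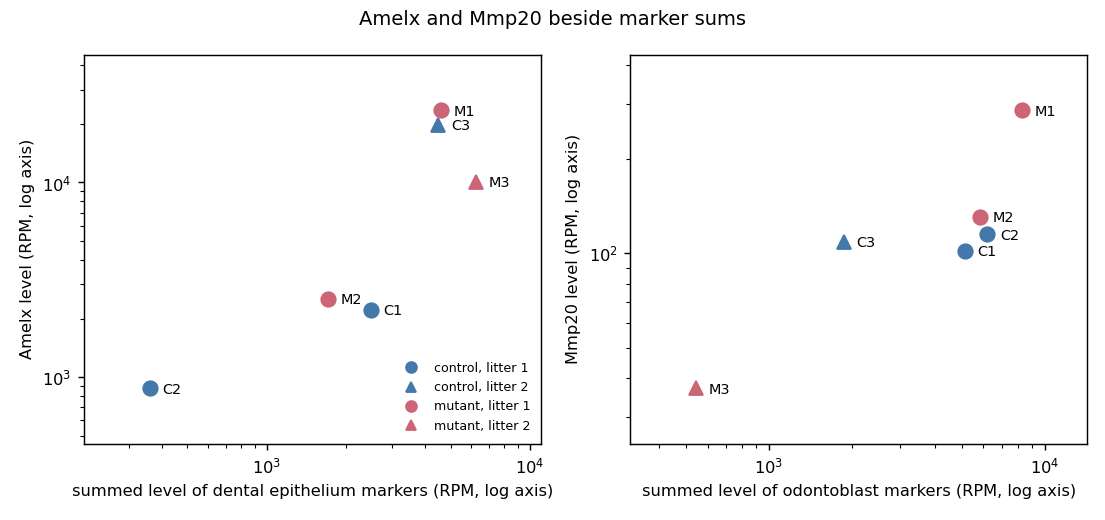
Left, Amelx level against the summed level of 16 dental epithelium markers; right, Mmp20 level against the summed level of 6 odontoblast markers (RPM, log axes), for controls (C, blue) and mutants (M, red) of litter 1 (circles) and litter 2 (triangles). C2 is lowest on both left axes, and M3 is lowest on both right axes while it has the highest epithelial sum.

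Other genes needed for enamel formation were followed as a list. Of 19 listed names, 18 genes were in the table and tested, and 0 had an unadjusted p under 0.05 for genotype by limma (10 higher, 8 lower, median change 0.18). Acpt, an acid phosphatase gene also named Acp4, was at 7.77, 7.45 and 87.4 RPM in the controls and 98.2, 9.48 and 26.4 RPM in mutants. Lamb3, a laminin subunit gene of epithelial basement membrane, was at 47.4, 30.0 and 279.7 RPM in the controls and 309, 45.4 and 158 RPM in mutants. Both were high in the libraries with high Amelx, and both ranked among the 10 genes of closest pattern to the secretory genes. For litter, Col17a1 (1.45) and Fam83h (1.02) were higher and Cnnm4 (-1.04) and Ltbp3 (-0.72) lower in litter 2 at an unadjusted p under 0.05 (limma), a threshold met by 20.9% of all tested genes, and 0 passed adjustment. The transcription factor gene Msx2, among the 3 highest of the list with Ltbp3 and Col17a1, varied only 1.72-fold.

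Slc24a4 and Car6, genes of the maturation stage, were picked after their values had been seen. Slc24a4, a calcium exchanger gene, was at 0.329, 0.839 and 24.8 RPM in the controls and 30.6, 0.0998 and 1.59 RPM in mutants. Car6, a secreted carbonic anhydrase gene, was at 2.24, 2.80 and 17.3 RPM in the controls and 12.0, 1.93 and 0.838 RPM in mutants. Slc24a4 placed the libraries in the same order as Odam and Amtn, with mutant 3 next after control 3. Car6 was highest in control 3 and lowest in mutant 3, as Klk4 was. In mutant 2 the Slc24a4 value equalled the 3 reads taken as the detection limit.

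Among 10 ion transport genes listed for ameloblasts, 9 were tested and 0 had an unadjusted p under 0.05 for genotype by limma (5 higher, 4 lower, median change 0.02). The bicarbonate transporter genes Slc4a4 and Slc4a2 and the carbonic anhydrase gene Car2 were the highest, and they varied 2.75-fold, 1.85-fold and 2.45-fold. Slc26a4, encoding the anion exchanger pendrin, was the only one past adjustment for litter (-2.86, limma with Benjamini-Hochberg, adjusted p 0.034). It was at 0.141 RPM in control 3 and 0.293 RPM in mutant 3 and at 4.97 to 11.9 RPM in the litter 1 libraries. That call was lost under median-of-ratios scaling and under limma voom, where 0 genes passed. Of the casein gene cluster, 5 of 6 listed names were in the table. Csn1s1, Csn2, Csn1s2a and Csn1s2b had 0 reads in each library, so Csn3 was the only listed casein gene with reads. Gm17660, also named Scpppq1, was at 1.42 RPM in mutant 1 and at or under 0.210 RPM elsewhere.

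Genes whose pattern was most like that of the secretory genes were sought among the 705 other tested genes that spanned at least 4-fold on the RPM + 1 scale. Likeness was Pearson's r with the mean log2(RPM + 1) of Amelx, Ambn, Enam and Mmp20 over the 6 libraries, given as a description without a test. The libraries share the split between 3 high and 3 low, which by itself gives high values of r. The 10 closest were Cd55, Gm16083, Cldn20, Acpt, Gpr4, Daf2, AI504432, 1700062I23Rik, Lamb3 and Chst1, with r from 0.976 to 0.996. Cd55, which encodes a complement regulator on the cell surface, was at 7.50, 5.25 and 48.1 RPM in the controls and 71.2, 11.6 and 18.8 RPM in mutants. Gm16083 is annotated antisense to Cd55, and Daf2, also named Cd55b, is its close copy, so reads of these 3 may not be fully separated. Cldn20, a claudin gene nested antisense in Tfb1m, was at 1.02, 0.490 and 11.2 RPM in the controls and 26.9, 1.36 and 5.78 RPM in mutants. Chst1, a sulfotransferase gene, was at 17.6, 7.10 and 69.9 RPM in the controls and 157, 16.6 and 47.3 RPM in mutants. Against the mean of the other secretory genes, r was 0.941 for Amelx, 0.978 for Ambn and 0.977 for Enam, but 0.187 for Mmp20. Against all 4 it was 0.623 for Klk4 and 0.919 to 0.951 for Odam, Amtn, Csn3 and Calb1.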

How the data were processed

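Poly(A) RNA of 6 libraries was read on a NextSeq instrument, as the labels' protocols state. TopHat2 and mm10 are named in the submitters' processing notes; the counting program, annotation and strand setting are not given in the sources used here. The authors deposited a table titled normalized RPKM whose values are log2. Raised as powers of 2, 100% of the values under 500 reads were whole multiples (within 0.02 reads) of a single step per column, so gene length was not divided out. The values were treated as log2 RPM (reads scaled to library depth, RPM), an inferred unit. The column minimum, 0.9 of 1 read, was set to 0.

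The 14444 genes averaging 1 RPM or more entered limma 3.58.1 (R 4.3.3; log2(RPM + 1), eBayes with trend, two-sided p, Benjamini-Hochberg), for genotype, and for litter with genotype as a covariate. Fold changes on this scale understate low genes. The fitting step was tested on simulated data. The alternatives changed the pseudocount (0.1, 0.5), the filter (none, 5 RPM), the scaling (median-of-ratios, upper-quartile), eBayes without trend, limma voom, litter or replicate number as a block, litter 1 alone, and leaving out each library. The genes and lists were chosen with earlier results of these data known. Named genes were the 9, the 3 highest of each list, list genes with an unadjusted p under 0.05, the 10 of closest pattern, and those said to be picked later; an item that met this rule is not reported here. Marker lists for dental epithelium, oral mucosa, odontoblasts, bone, mesenchyme and erythroid cells were used.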

Additional observations from a re-analysis of the deposited data

Results flagged for a closer look

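The genotype difference was of opposite sign in the litters for all 9 genes, and 6 were singled out by separated libraries or by the test below. In Amelx, Ambn, Enam, Mmp20 and Calb1, mutants 1 and 2 each exceeded controls 1 and 2, and mutant 3 was under control 3. This occurred in 5 of the 9 genes and in 515 of the 14444 tested (3.57%), and the genes vary together. The difference between litters was tested as a genotype-by-litter term in limma, litter 2 minus litter 1. It was -3.44 for Amelx (SE 2.09, unadjusted p 0.151), -3.64 for Ambn (SE 2.01, p 0.12), -4.08 for Enam (SE 2.13, p 0.104), -2.37 for Mmp20 (SE 0.62, p 0.0087) and -4.62 for Calb1 (SE 1.72, p 0.0359). Klk4 was flagged by the term alone, at -5.04 (SE 1.23, limma, unadjusted p 0.00635). None passed adjustment over all genes (limma with Benjamini-Hochberg, adjusted p 0.695 to 0.910). Over all tested genes 731, or 5.06%, had an unadjusted p under 0.05 for this term and 0 an adjusted one, that is 0%. Litter 2 has 1 library per genotype, so the term rests on control 3 and mutant 3, its spread is that of litter 1 alone, and the p-values lend no support to a difference between litters.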

How the results depend on the processing

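For genotype, 0 genes passed adjustment (limma with Benjamini-Hochberg) under each alternative with all libraries or litter 1 alone, and 0 to 1 when 1 library was left out (1 without control 1). At an unadjusted p under 0.05 the count, reported as 152, was 344 without the expression filter, 292 with litter as a block and 316 in litter 1 alone; it was 68 to 319 when 1 library was left out. With the replicate block it was 524. The numbers come from the column names, and deviations of same-numbered libraries correlated at -0.0329, 0.752 and 0.501, so they were not taken as pairs. Among 153 recomputed genotype values of the 9 genes, 143 kept their direction and 10 reversed. The changes of filter, eBayes without trend and the litter and replicate blocks leave the value itself unchanged. They could not reverse a direction, so the count of kept directions says little about stability. Of the 153 values, 4 had an unadjusted p under 0.05 (smallest 0.0399, limma) and 0 passed adjustment. Klk4 was at 0.73 in litter 1 alone. The ranges with 1 library left out were 0.35 to 2.59 for Amelx, 0.34 to 2.46 for Ambn, 0.20 to 2.64 for Enam, -0.63 to 0.84 for Mmp20, -1.99 to -0.06 for Klk4, -0.85 to 2.51 for Odam, -0.89 to 2.67 for Amtn, -0.38 to 3.40 for Csn3 and -0.42 to 2.00 for Calb1. The log2 stage ratio difference ran from 0.06 to 1.34 with 1 library left out and from 0.46 to 0.78 otherwise. For litter, the count passing adjustment, 126, was 2 with no filter, 0 with median-of-ratios scaling, 1 with upper-quartile scaling and 0 with voom, and 0 to 371 with 1 library left out (371 without mutant 1, 0 without mutant 2 or 3, 22 without control 3, 51 without control 2, 82 without control 1). The unadjusted count, 3026, was 1396 to 4245 there. Klk4 turned to 0.32 with voom. With 1 library left out its litter value ran from -2.66 to 2.38, that of Mmp20 from -2.36 to 0.00, and those of the other 7 genes from 0.10 (Ambn and Odam without control 3) to 5.34 (Csn3 without mutant 3). Where a lone library stood for a group, it was assumed to vary like the others. The cause of these shifts was not tested. The smallest read counts behind a lowest value were those of Csn3 (46) and Amtn (86), both in mutant 2, the library with the most reads on genes.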
